A study of Mus musculus with 8 samples.

Results

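Calmodulin kinases and neurogranin are described here as 10 genes read from every library: the CaMKII genes Camk2a, Camk2b, Camk2d and Camk2g, the CaMK-cascade genes Camkk1, Camkk2, Camk1 and Camk4, the pseudokinase gene Camkv and the calmodulin-binding gene Nrgn. They were chosen by symbol, through the Ensembl identifiers of the deposited tables, with earlier results of these data known. All 10 were found among the 29713 genes of the tables. In TPM, the deposited length-scaled measure of transcript abundance, all 10 reached 10 in at least 1 library, as 13323 genes of the tables did. The libraries were RNA sequencing libraries of mouse, 1 in each of 8 groups. The neuron and glia libraries came from brain of strain C57, and the libraries labelled cerebellum, cortex and hippocampus were of the same strain. One library is labelled R1 ESC, from inner cell mass of strain 129X1 x 129S1. Fibroblasts of day 13.5 embryos gave the MEF libraries, ICR MEF and OG2 MEF, named for their strains. No group had a treatment in the labels. The labels used here do not state age or sex of the animals, how the regions were dissected, or how neurons and glia were separated.

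Calmodulin is a small protein that changes shape when it binds calcium and then switches on the kinases it meets. CaMKII assembles into large rings whose subunits phosphorylate each other at one threonine, which keeps the ring active after calcium has fallen, and the alpha and beta subunits are abundant at the synapses of forebrain neurons. In the parallel cascade, the kinases of Camkk1 and Camkk2 phosphorylate and activate those of Camk1 and Camk4. Camkv resembles a CaM kinase but lacks kinase activity. Neurogranin, the product of Nrgn, binds calmodulin at low calcium through an IQ motif and is a protein of dendrites and spines.

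The calmodulin-binding stretch of Nrgn is shown beside that of Pcp4, because these 2 genes took very different places in the libraries below. The lines are 54 coding bases each, 5′ to 3′, from GENCODE M21 transcripts, and capitals mark the 6 codons from the isoleucine and glutamine that give the motif its name to the conserved arginine.
Nrgn: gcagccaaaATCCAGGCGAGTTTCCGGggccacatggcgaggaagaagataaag
Pcp4: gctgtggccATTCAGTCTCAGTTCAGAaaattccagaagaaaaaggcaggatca
Nrgn and Pcp4 were identical at 21 of the 54 bases and 6 of the 18 encoded residues. The Nrgn stretch spans coding bases 88 to 141 of a coding region of 237 bases, the shortest of the 10 genes.

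The CaMKII genes are close relatives, so the stretch around the codon of the autophosphorylated threonine is shown for 3 of them to let a reader see how far their transcripts differ. Each line holds coding bases 829 to 891, with the threonine codon, number 287, in capitals.
Camk2b: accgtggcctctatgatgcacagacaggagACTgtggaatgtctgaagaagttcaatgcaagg
Camk2d: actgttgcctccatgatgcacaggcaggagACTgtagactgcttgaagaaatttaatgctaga
Camk2g: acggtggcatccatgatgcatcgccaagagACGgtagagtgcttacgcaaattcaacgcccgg
Over these 63 bases Camk2b and Camk2d differed at 12, Camk2d and Camk2g at 18, and Camk2b and Camk2g at 20. Across whole coding regions the longest run shared by any pair of the 4 CaMKII genes was 32 bases, and no pair shared a run of 50 bases. The deposited counts of all 4 were whole numbers in all 8 libraries, as were those of Camkk1, Camkk2, Camkv and Nrgn. Camk1 had whole counts in 7 libraries and Camk4 in 1.

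In mm10, as annotated by GENCODE M21, Camk2b lies on chromosome 11 at chr11:5969644-6066362 (minus strand), Camk2d at chr3:126596302-126846326 (plus) and Camk2g at chr14:20734875-20794088 (minus). Camkk1 lies at chr11:73019008-73042073 (plus), Camkk2 at chr5:122731170-122779409 (minus), Camk1 at chr6:113334124-113343984 (minus), Camkv at chr9:107935674-107949691 (plus) and Nrgn at chr9:37544492-37552904 (minus).

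Camk2a lies at chr18:60925618-60988152 (plus) and Camk4 at chr18:32934931-33191228 (plus). Camk1 shares 232 exon bases with Ogg1 and Camk4 shares 72 with the antisense gene 2310026I22Rik, each on the opposite strand. As the strandedness of the libraries is not given, reads of those bases cannot be told apart. Ogg1 stood between 3.29 and 30.6 TPM in the 8 libraries, and 2310026I22Rik at or under 1.48 TPM.

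Total expected counts lay between 2147004 and 5864673 per library, so that 3 counts on a transcript of 2000 bases were worth 0.461 to 0.943 TPM. TPM counts transcripts per length, so levels can be set side by side between genes. Intervals below are 95% counting intervals (exact Poisson for a level, exact Clopper-Pearson for a ratio) and cover counting error only. As each group is 1 library, differences lack a check by replicates, and no p-value was computed. In these bulk samples, fewer cells of a type and less RNA per cell cannot be told apart.

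The labelled tissues were checked against marker genes, and some libraries stood apart. All 5 neuron markers reached 10 TPM in the neuron library, and all 5 astrocyte markers did in glia. Of the neuron markers, 2 also reached 10 TPM in glia, Map2 at 118 and Tubb3 at 39.6 TPM, while Snap25, Syt1 and Rbfox3 stood at 0.73, 0.70 and 0 TPM there. Oligodendrocyte markers, at a summed 3997 to 5412 TPM in the regions, summed to 25.1 TPM in neuron and 8.03 TPM in glia. Glia also held Acta2, a contractile actin, at 4147 TPM. The cortex library held the striatal markers Drd1, Drd2 and Adora2a at 53.8 to 84.8 TPM. In the library labelled R1 ESC the pluripotency markers Zfp42 and Esrrb were listed at 0, Pou5f1 stood at 20.2 and Nanog at 10.3 TPM, and ribosomal protein genes took 49.3% of TPM, against 4.56% to 20.8% in the other libraries. The mean effective transcript length behind a count was 1739 bases in that library and 2488 bases in neuron, against 3021 to 3740 bases in the other 6.

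Camk2a, the alpha subunit, and Camk2b, the beta subunit, were the leading CaMKII transcripts in neuron, cortex and hippocampus, while in cerebellum Camk2b led and Camk2a was the lowest of the 4. Camk2a stood at 164 TPM in neuron, 10.75 in glia, 59.6 in cerebellum, 1822 in cortex, 2477 in hippocampus, 0.11 in the library labelled R1 ESC, 3.74 in ICR MEF and 3.72 in OG2 MEF. Camk2b stood at 328 TPM in neuron, 16.15 in glia, 442 in cerebellum, 555 in cortex, 829.8 in hippocampus, 0.24 in the library labelled R1 ESC, 0.11 in ICR MEF and 0.18 in OG2 MEF. Camk2b thus kept within a narrow range in neuron and the 3 regions, over which Camk2a was far lower in cerebellum and neuron than in cortex and hippocampus. The MEFs did not differ in Camk2a beyond counting error (ratio of ICR to OG2 MEF 1.005, interval 0.562 to 1.82), and their Camk2b rested on 1 and 2 counts.

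Camk2d and Camk2g, the delta and gamma subunits found across many tissues, were measured in every library and were far more even. Camk2d stood at 64.5 TPM in neuron, 98.4 in glia, 143 in cerebellum, 171 in cortex, 39.9 in hippocampus, 7.88 in the library labelled R1 ESC, 57.6 in ICR MEF and 56.1 in OG2 MEF. Camk2g stood at 34.8 TPM in neuron, 74.1 in glia, 118 in cerebellum, 138 in cortex, 135 in hippocampus, 1.5 in the library labelled R1 ESC, 51.3 in ICR MEF and 46.2 in OG2 MEF. Hippocampus, highest of all libraries for Camk2a and Camk2b, was the lowest of the brain-derived libraries for Camk2d. For Camk2g, cortex and hippocampus did not differ beyond counting error (1.02, 0.932 to 1.13), nor did the MEFs (1.11, 0.979 to 1.26). For Camk2d the MEFs did not either (1.03, 0.908 to 1.16).

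**Figure D1:**
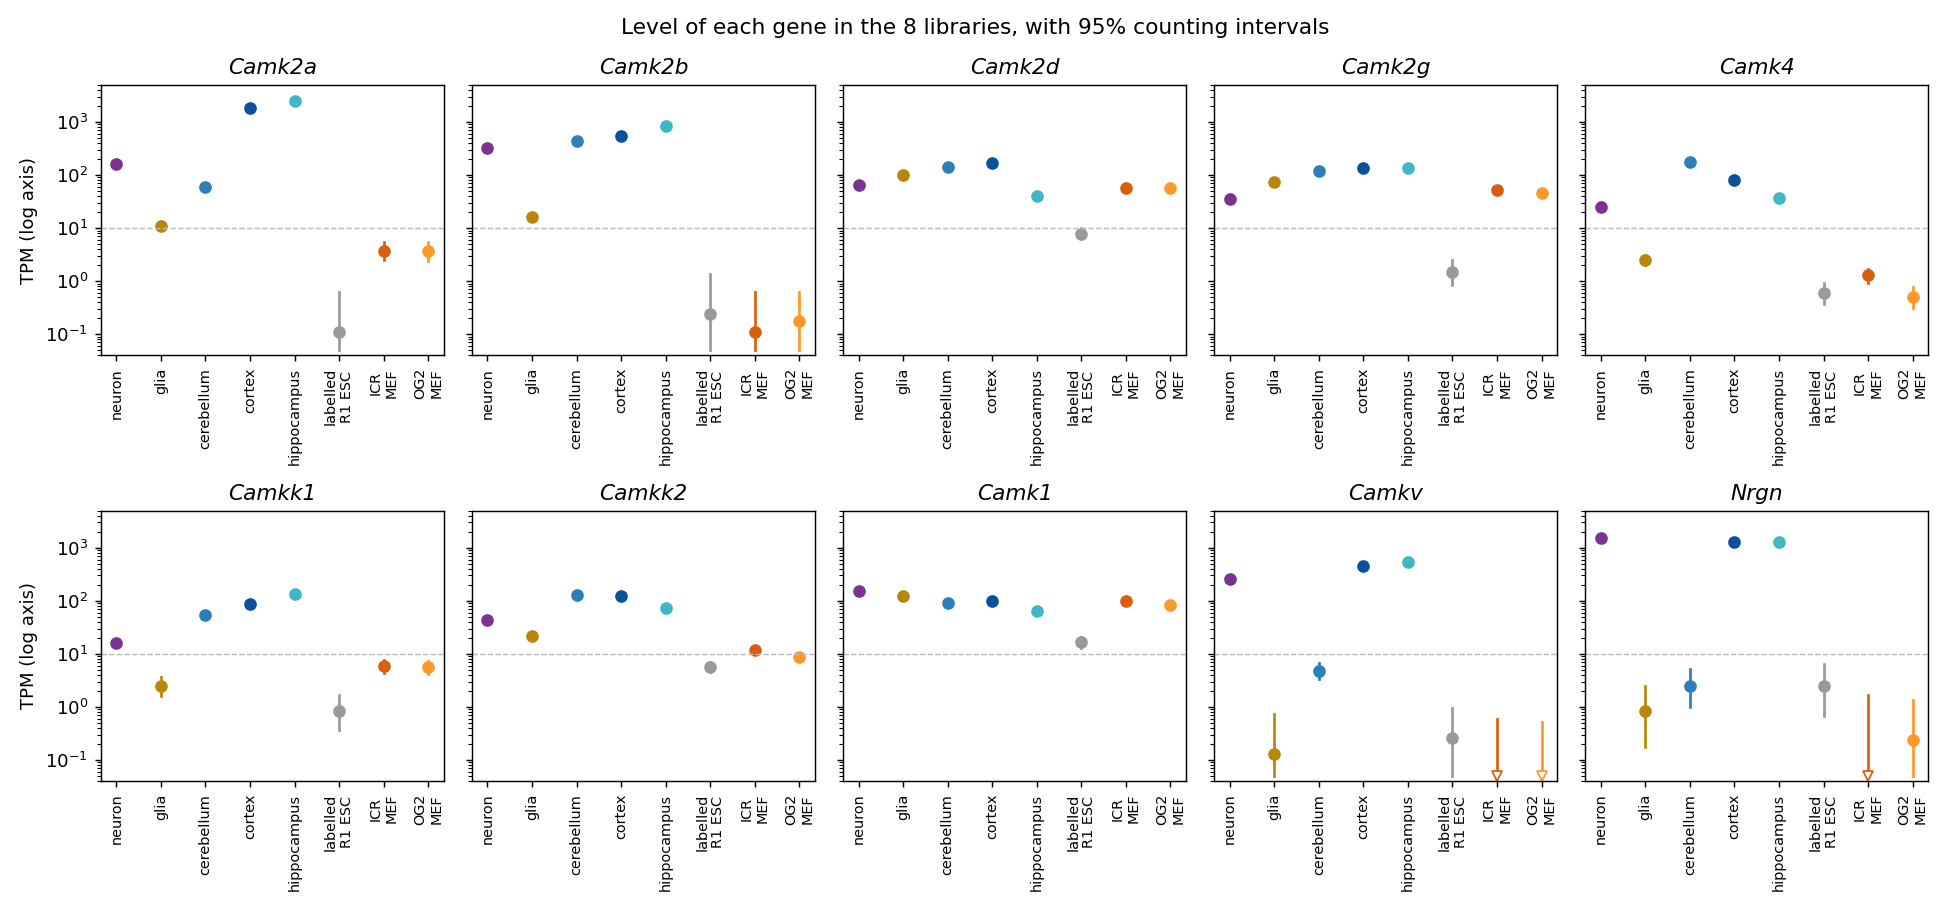
TPM of each of the 10 genes (log axis) in the 8 libraries, 1 point per library with its 95% counting interval; open triangles at the foot are libraries at 0 counts, intervals are drawn down to 0.05 TPM, and the dashed line is 10 TPM. Nrgn and Camkv lie above 250 TPM in neuron, cortex and hippocampus and under 5 TPM in the other 5 libraries, while Camk1 lies between 63.4 and 153 TPM in all but the library labelled R1 ESC.

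As shares of the summed TPM of the 4 CaMKII genes, which removes differences in overall scale between libraries, the composition took 3 forms. In cortex and hippocampus Camk2a made up 67.8% ± 0.31 and 71.1% ± 0.33 (± counting SE). In neuron and cerebellum Camk2b led with 55.4% ± 0.60 and 58.0% ± 0.61, and Camk2a made up 27.8% ± 0.51 and 7.82% ± 0.31. In glia and the MEFs Camk2d and Camk2g made up most of the sum: Camk2d held 49.3% ± 1.1 in glia, 51.1% ± 1.6 in ICR MEF and 52.8% ± 1.5 in OG2 MEF, and Camk2g held 37.2% ± 1.1 in glia, 45.5% ± 1.6 in ICR MEF and 43.5% ± 1.5 in OG2 MEF.

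Camk2a and Camk2b together held 83.2% in neuron, 13.5% in glia, 65.8% in cerebellum, 88.5% in cortex, 95% in hippocampus, 3.42% in ICR MEF and 3.67% in OG2 MEF. In the library labelled R1 ESC they held 3.60% ± 2.6, on 94 counts of all 4 genes, and Camk2d held 81.0% ± 4.3. The summed level itself stood at 591 TPM in neuron, 199 in glia, 763 in cerebellum, 2687 in cortex, 3481 in hippocampus, 9.73 in the library labelled R1 ESC, 113 in ICR MEF and 106 in OG2 MEF. Glia thus lay nearer to the MEFs than to any brain region in this sum, and Camk2d led in all 3 of these libraries.

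**Figure D2:**
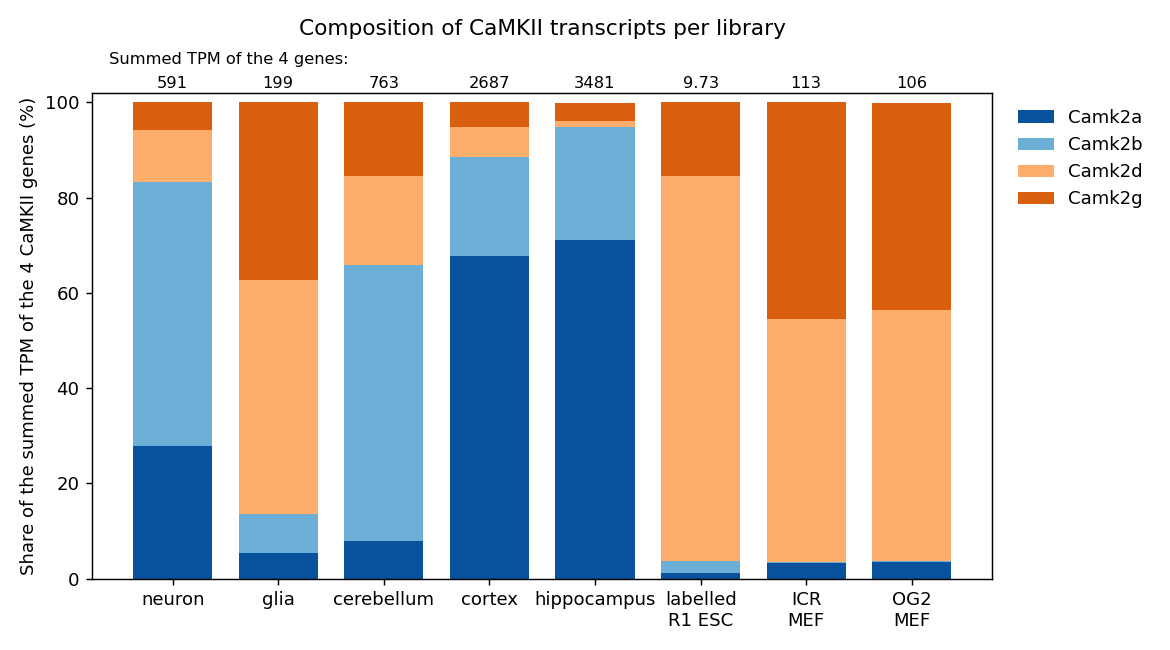
Share of each CaMKII gene (stacked, in % of the summed TPM of the 4 genes) in each of the 8 libraries, with the summed TPM above each bar. Camk2a fills 67.8% and 71.1% of the bars of cortex and hippocampus, Camk2b 55.4% and 58.0% of those of neuron and cerebellum, and Camk2d with Camk2g nearly the whole bars of the MEFs.

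The ratio of Camk2a to Camk2b within a library was 0.502 (0.476 to 0.529) in neuron, 0.666 (0.518 to 0.857) in glia, 0.135 (0.124 to 0.147) in cerebellum, 3.28 (3.18 to 3.39) in cortex and 2.99 (2.89 to 3.09) in hippocampus. The alpha subunit was thus the lesser transcript in neuron and cerebellum and the greater in both forebrain regions. In glia the order turned with no length term, which gave Camk2a 6.74% and Camk2b 6.09% of the CaMKII sum. The effective length of Camk2a differed up to 2.53-fold between libraries and that of Camk2b up to 2.51-fold; with 1 length per gene the shares moved as given in the closing section. The ratio of Camk2d to Camk2g was 1.86 (1.64 to 2.11) in neuron, 1.33 (1.21 to 1.46) in glia, 1.21 (1.11 to 1.32) in cerebellum and 1.24 (1.14 to 1.35) in cortex. In hippocampus it was 0.295 (0.254 to 0.342), the only library of the 8 in which Camk2g exceeded Camk2d.

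The upstream kinases of the cascade were most abundant in the brain regions and differed in which region led. Camkk1 stood at 15.9 TPM in neuron, 2.47 in glia, 53.6 in cerebellum, 88.7 in cortex, 134 in hippocampus, 0.85 in the library labelled R1 ESC, 5.78 in ICR MEF and 5.58 in OG2 MEF. Camkk2, which also phosphorylates the energy sensor AMPK, stood at 42.9 TPM in neuron, 21.5 in glia, 130.3 in cerebellum, 126 in cortex, 73.02 in hippocampus, 5.68 in the library labelled R1 ESC, 11.9 in ICR MEF and 8.89 in OG2 MEF. Camkk1 was highest in hippocampus, whereas Camkk2 was lower there than in cerebellum and cortex, which did not differ beyond counting error (1.04, 0.962 to 1.12).

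The Camkk1 to Camkk2 ratio was 0.370 (0.309 to 0.441) in neuron, 0.115 (0.0722 to 0.174) in glia, 0.411 (0.368 to 0.458) in cerebellum, 0.706 (0.642 to 0.775) in cortex and 1.84 (1.64 to 2.06) in hippocampus. Hippocampus was the only one of the 8 libraries in which Camkk1 exceeded Camkk2. The MEF ratios were 0.485 (0.349 to 0.668) for strain ICR and 0.628 (0.455 to 0.859) for OG2, and in the library labelled R1 ESC, on 8 counts of Camkk1, 0.150 (0.0621 to 0.308).

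Because the levels of Camkk1 and Camkk2 part in hippocampus, the 250 bases upstream of their RefSeq start sites are shown (GRCm38.p6), Camkk1 at chr11:73018738-73018987 on the plus strand and Camkk2 at chr5:122779411-122779660 on the minus strand. Capitals mark matches on either strand to the GC box (GGGCGG), the CCAAT box (CCAAT) and the CRE half-site (TGACG).
Camkk1: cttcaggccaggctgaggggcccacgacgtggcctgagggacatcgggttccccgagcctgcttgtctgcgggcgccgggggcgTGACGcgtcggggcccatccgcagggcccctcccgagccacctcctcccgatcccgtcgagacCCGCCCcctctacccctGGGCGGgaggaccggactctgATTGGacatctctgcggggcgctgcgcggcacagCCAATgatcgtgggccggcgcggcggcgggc
Camkk2: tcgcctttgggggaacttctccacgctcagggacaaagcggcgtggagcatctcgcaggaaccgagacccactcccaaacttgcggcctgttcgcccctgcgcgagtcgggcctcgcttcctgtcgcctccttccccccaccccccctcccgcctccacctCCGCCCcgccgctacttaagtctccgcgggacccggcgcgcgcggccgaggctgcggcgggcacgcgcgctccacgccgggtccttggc
The Camkk1 window held 2 GC boxes, 2 CCAAT boxes and 1 CRE half-site, and the Camkk2 window held 1 GC box and neither of the others. Of 32851 mouse windows of this length, 32.7% held a GC box, 33.8% a CCAAT box and 17.8% a CRE half-site. Windows of 7 of the 10 genes were used, and 6 of these 7 windows held a GC box. The 7 windows were rich in G and C, from 58% in Camk1 to 78.4% in Camk2b. That is more than in 66.8% and 98.1% of all windows. The share of all windows with a GC box was not matched for this content. The full CRE (TGACGTCA, which contains the half-site and is in 1.55% of windows) and the TATA box (TATAAA, in 12.4%) were in none of the 7. An E-box (CANNTG, in 66.2%) was in 3, with 4 matches in the window of Camk1 and 1 each in those of Camkv and Nrgn. By GENCODE M21 these 3 windows run into exon, for 62 of 250 bases in Camk1, 246 in Camkv and 159 in Nrgn. A match describes letters in a window, not a bound site.

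Camk1 and Camk4, the kinases that Camkk1 and Camkk2 activate, were opposite in breadth. Camk1, found in many cell types, stood at 153 TPM in neuron, 125 in glia, 89.2 in cerebellum, 98.4 in cortex, 63.4 in hippocampus, 16.6 in the library labelled R1 ESC, 98.8 in ICR MEF and 83.4 in OG2 MEF. Camk4, a mainly nuclear kinase that phosphorylates CREB, stood at 25.45 TPM in neuron, 2.50 in glia, 177 in cerebellum, 81.1 in cortex, 36.98 in hippocampus, 0.61 in the library labelled R1 ESC, 1.28 in ICR MEF and 0.51 in OG2 MEF. For Camk1, ICR MEF, cortex, cerebellum and OG2 MEF did not differ from the next in order beyond counting error, with ratios of 1.00, 1.10 and 1.07 whose intervals all held 1.

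Camk4 was ordered cerebellum, cortex, hippocampus and neuron, each step beyond counting error. It is the reverse of the order of Camk2a among the regions. Transcript length bears on the place of neuron. Against cortex and hippocampus together, the log2 difference of Camk4 in neuron was -1.08. It was 1.25 with the median of genes of like length taken off. That median was -2.33 for the length of Camk4 and -0.26 for that of Camk1, so length bears on their neuron ratio as well. Its part was not tested. Within libraries the ratio of Camk4 to Camk1 was 0.166 (0.150 to 0.184) in neuron, 0.0201 (0.0158 to 0.0253) in glia, 1.98 (1.77 to 2.23) in cerebellum, 0.824 (0.733 to 0.928) in cortex and 0.583 (0.486 to 0.703) in hippocampus. Cerebellum was the only one of the 8 libraries with more Camk4 than Camk1.

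**Figure D3:**
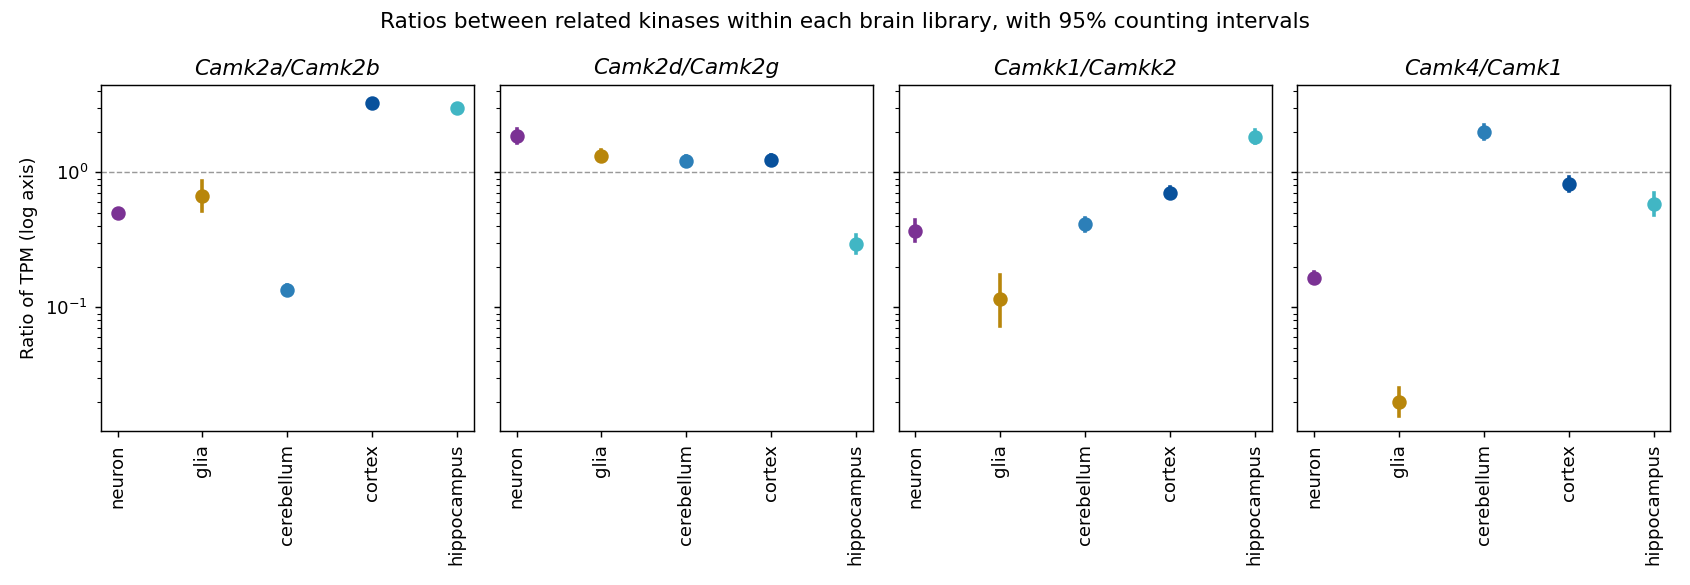
Ratio of TPM between related kinases within each of the 5 brain-derived libraries (log axis), with 95% counting intervals; the dashed line is a ratio of 1. Camk2a exceeds Camk2b in cortex (3.28) and hippocampus (2.99) alone among the 5, Camk2d falls below Camk2g (0.295) and Camkk1 exceeds Camkk2 (1.84) in hippocampus alone, and Camk4 exceeds Camk1 (1.98) in cerebellum alone.

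Camkv and Nrgn were present at high levels in neuron, cortex and hippocampus and nearly missing from the other 5 libraries, cerebellum included. Camkv stood at 259 TPM in neuron, 0.13 in glia, 4.83 in cerebellum, 455 in cortex, 543 in hippocampus, 0.26 in the library labelled R1 ESC and 0 in both MEFs. Nrgn stood at 1525 TPM in neuron, 0.84 in glia, 2.48 in cerebellum, 1309 in cortex, 1268 in hippocampus, 2.51 in the library labelled R1 ESC, 0 in ICR MEF and 0.24 in OG2 MEF. Low values rested on few counts: 34 for Camkv and 7 for Nrgn in cerebellum, 1 and 3 in glia, and 2 and 4 in the library labelled R1 ESC. At 0 counts the MEFs allow up to 0.486 (ICR) and 0.415 (OG2) TPM of Camkv, and ICR MEF up to 1.38 TPM of Nrgn, at 3 counts.

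Nrgn and Camk1 were the only 2 of the 10 genes with their highest level in the neuron library. The level of Nrgn in neuron exceeded that in cortex by 1.17-fold (1.12 to 1.22), and cortex and hippocampus did not differ beyond counting error (1.03, 0.982 to 1.09). The ratio of Nrgn to Camk2a was 9.28 (8.84 to 9.74) in neuron, against 0.719 (0.694 to 0.745) in cortex and 0.512 (0.491 to 0.534) in hippocampus. The ratio of Camkv to Camk2a was 1.58 (1.49 to 1.67) in neuron, against 0.250 (0.240 to 0.259) in cortex and 0.219 (0.210 to 0.229) in hippocampus. Nrgn and Camkv thus stood higher relative to Camk2a in the neuron library than in cortex and hippocampus. Transcript length bears on the size of these contrasts. Among genes of like length, the median log2 difference between neuron and those regions was 0.05 for Nrgn, -1.28 for Camkv and -1.64 for Camk2a. The part of length in the ratios was not tested.

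Other IQ-motif peptides had other distributions. Pcp4, a calmodulin-binding peptide of Purkinje cells, stood at 912 TPM in neuron, 26.9 in glia, 2083 in cerebellum, 1106 in cortex and 309 in hippocampus, and 0 in the other 3 libraries. Gap43, a growth cone protein, stood at 2040.0 TPM in neuron, 21.4 in glia, 228 in cerebellum, 517 in cortex and 229.8 in hippocampus. Summed over Nrgn, Pcp4, Pcp4l1 and Gap43, the IQ peptides came to 4516 TPM in neuron, 211 in glia, 2409 in cerebellum, 3211 in cortex and 1880.0 in hippocampus, 6.11 in the library labelled R1 ESC, 49.6 in ICR MEF and 40.3 in OG2 MEF. Nrgn was 33.8% of this sum in neuron, 40.8% in cortex and 67.4% in hippocampus, against 0.103% in cerebellum and 0.397% in glia.

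Camk2n1 and Camk2n2, the genes of the CaMKII inhibitor proteins, were not in proportion to the kinase. Per TPM of the 4 CaMKII genes their sum was 0.911 in neuron, 0.0887 in glia, 0.410 in cerebellum, 0.457 in cortex and 0.162 in hippocampus. Hippocampus had the most CaMKII of the 3 regions and the least inhibitor transcript relative to it.

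**Figure D4:**
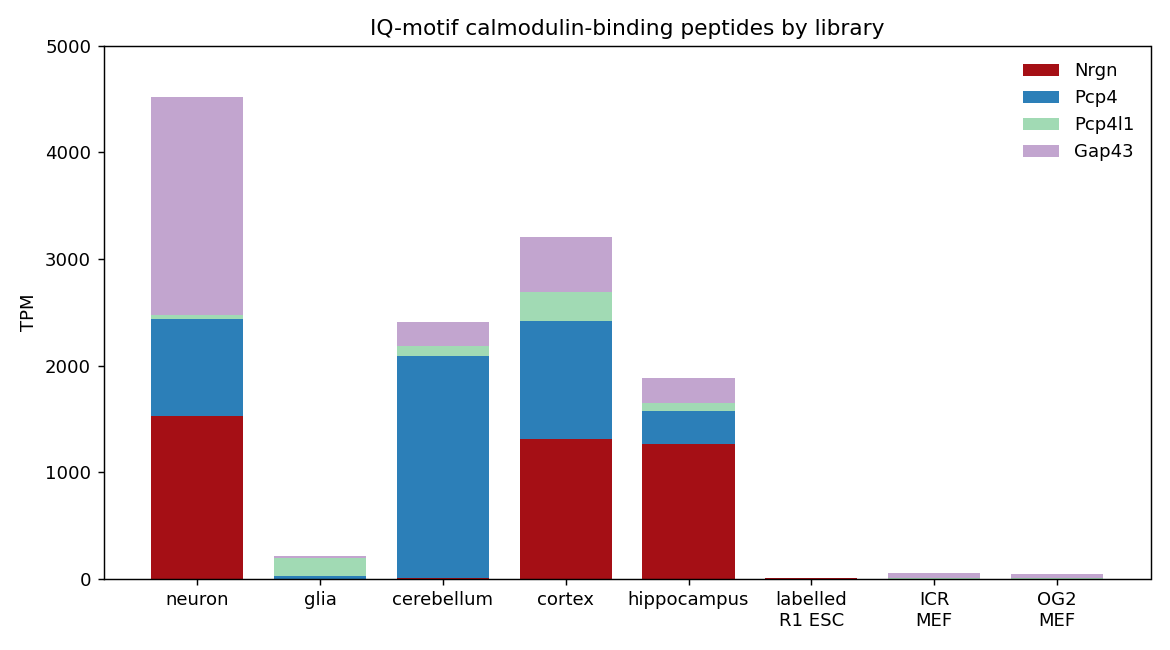
TPM of Nrgn, Pcp4, Pcp4l1 and Gap43 (stacked bars, linear axis) in each of the 8 libraries. Nrgn makes up 33.8%, 40.8% and 67.4% of the bars of neuron, cortex and hippocampus and nearly none of the cerebellum bar, which is mostly Pcp4; the bars of the library labelled R1 ESC and the MEFs stay at or under 49.6 TPM.

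For comparisons between libraries, calling a gene required 10 TPM or more throughout the higher side, and a 4-fold or larger step, on TPM with 1 added, between the nearest libraries of the sides. Folds are ratios of TPM of those nearest libraries, without the added 1. The share of genes called is given over the genes that could be called, those with at least 10 TPM in every library of at least 1 side; all 10 genes could be called unless a smaller number is given. Differences are of mean log2(TPM + 1), the first-named side minus the second. Medians over all genes are over the genes that could be called, while medians over the 10 genes also hold members that could not. Comparisons that share a library are not independent of each other, and their values are given side by side only.

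Between neuron and glia, 6 of the 10 genes were called higher in neuron and none lower, where 10.4% of 11185 genes were called higher and 30.5% lower. Nrgn was 1815-fold higher (620.2 to 8797), on 3 counts in glia, and Camkv 1995-fold (347 to 76530.0), on 1 count in glia. Camk2b was 20.3-fold (16.9 to 24.5), Camk2a 15.3-fold (12.9 to 18.3), Camk4 10.2-fold (8.17 to 12.9) and Camkk1 6.43-fold (4.17 to 10.3) higher. The other members were not called: Camkk2 was 1.99-fold and Camk1 1.23-fold higher in neuron, and Camk2d stood 1.53-fold and Camk2g 2.13-fold lower. With the length trend removed, Camkk2 was called higher as well (log2 difference 2.81). Camk2d and Camk2g then turned higher without a call (0.87 and 0.54). Camk2d also turned higher with factors that equalise the TPM (0.22) or with no length term (0.16).

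The median log2 difference was 2.60 over the 10 genes and -0.95 over all genes. With 5 TPM added in place of 1, Camkk1 was no longer called (log2 difference 1.48). Neuron markers summed to 1337 TPM in neuron and 159 TPM in glia, nearly all of it Map2 (122 TPM in neuron, 118 TPM in glia) and Tubb3 (552 TPM in neuron, 39.6 TPM in glia), and astrocyte markers to 58.3 TPM in neuron and 2491 TPM in glia. Their part in these differences was not tested. Of 58 other genes of the calmodulin pathway, 50 of which could be called, 14 were called higher in neuron and 10 lower. The higher ones included 6 of 9 synaptic substrates and anchors of CaMKII, among them the NMDA receptor subunit Grin1 (286 TPM in neuron, 0.84 TPM in glia), the CaMKII inhibitors Camk2n1 (20.4-fold) and Camk2n2 (38.2-fold), and the kinase genes Pnck (28.2-fold) and Camk1g (21.2-fold), both of the CaM kinase I group. The lower ones included Camk1d, another gene of that group (7.18 TPM in neuron, 33.3 TPM in glia), Prkaa1, a catalytic subunit of AMPK (4.32 TPM in neuron, 35.5 TPM in glia), and the phosphatase gene Ppm1f (8.09 TPM in neuron, 60.0 TPM in glia).

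Cerebellum differed from cortex and hippocampus in 3 of the 10 genes, all called lower in cerebellum. Over all 11199 genes, 3.15% were called lower and 2.36% higher. Nrgn was 511-fold (247 to 1271), Camkv 94.1-fold (67.3 to 136) and Camk2a 30.6-fold (28.2 to 33.2) lower, with log2 differences of -8.53, -6.42 and -5.13; at most 0.339% of the genes compared lay lower. The other members stayed within the calling limits: Camk2b was 1.26-fold and Camkk1 1.66-fold lower, and Camk4 was 2.18-fold (2.07 to 2.29) higher. Without cortex, Camk4 was called higher as well, with a log2 difference of 2.23 from hippocampus. The median over the 10 genes was -0.41, against 0.14 over all genes.

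Of the 58 pathway genes, 56 of which could be called, 1 was higher in cerebellum and 6 lower. The higher one was the phosphodiesterase gene Pde1c (50.7 TPM in cerebellum, 6.08 TPM in cortex and 4.63 TPM in hippocampus). Lower were Pde1a (52.0-fold), the NMDA receptor subunit Grin2b, which anchors CaMKII (29.4-fold), Lrrc7, which encodes densin-180 (24.4-fold), the death-associated kinase gene Dapk1 (6.999-fold), Mef2c (4.93-fold) and Ppm1e (4.72-fold). Granule neuron markers summed to 2475 TPM in cerebellum, 24.4 TPM in cortex and 46.8 TPM in hippocampus, and markers of forebrain excitatory neurons to 420.3 TPM in cerebellum, 991 TPM in cortex and 1219 TPM in hippocampus. Their part was not tested.

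Between cortex and hippocampus, Camk2d alone was called, higher in cortex by 4.30-fold (3.74 to 4.96), where 0.832% of 11059 genes were called higher and 0.452% lower. Its log2 difference of 2.08 sat at the limit: it was 1.98 with 5 TPM added, 1.81 without length terms and 1.80 with 1 length per gene, and the call was lost in each. Camk4 was 2.19-fold (2.01 to 2.39), Camkk2 1.72-fold (1.56 to 1.91) and Camk1 1.55-fold (1.27 to 1.90) higher in cortex. Camkk1 was 1.51-fold (1.36 to 1.69), Camk2b 1.495-fold (1.44 to 1.56), Camk2a 1.36-fold (1.33 to 1.39) and Camkv 1.20-fold (1.13 to 1.26) lower. All 7 of these lay beyond counting error and under 4-fold, and medians were 0.04 over the 10 genes and 0.02 over all. None of the 58 pathway genes was called, with 55 that could be. Striatal markers summed to 873 TPM in cortex and 59.6 TPM in hippocampus, and their part was not tested.

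Neuron against cortex and hippocampus gave 2 of the 10 genes lower and none higher. Over 10560 genes, 23.0% were called lower and 2.30% higher, so the share of members called was near that of all genes. Camk2a was 11.1-fold (10.6 to 11.6) and Camkk1 5.59-fold (4.70 to 6.69) lower in neuron. Their log2 differences of -3.68 and -2.71 lay below -1.05, the median over all genes, while the median over the 10 genes was -1.06. Camk1 was 1.56-fold and Nrgn 1.17-fold higher, and Camk2g was 3.88-fold, Camkv 1.75-fold, Camkk2 1.70-fold and Camk2b 1.69-fold lower, of which the last 3 turned higher with the length trend removed (log2 differences of 0.35, 0.82 and 0.49).

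Length moved with this comparison. Among genes of like effective length, the median log2 difference was 0.05 for the length of Nrgn, -0.26 for that of Camk1, -1.64 for that of Camk2a and -2.33 for that of Camk4, the longest of the members. With that trend removed, the differences were -2.04 for Camk2a, -1.17 for Camkk1, 0.19 for Nrgn and 1.25 for Camk4, and neither Camk2a nor Camkk1 was called. The part of transcript length in the result was not tested beyond this. Of the 58 pathway genes, 55 of which could be called, 18 were lower and none higher, led by Grin2a (0.23 TPM in neuron, 25 TPM in cortex and 55.9 TPM in hippocampus) and Lrrc7 (0.79 TPM in neuron, 42.7 TPM in cortex and 35.4 TPM in hippocampus).

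The 3 brain regions against the MEFs gave 5 of the 10 genes higher and none lower, with 8 that could be called, where 17.0% of 10730 genes were called higher and 6.67% lower. Camk2b was 2456-fold (698 to 20828), on 1 and 2 counts in the MEFs, Camk4 28.9-fold (21.3 to 40.3), Camk2a 15.9-fold (10.98 to 24.0), Camkk1 9.27-fold (6.95 to 12.6) and Camkk2 6.13-fold (5.12 to 7.38) higher. Camkv and Nrgn missed the call through cerebellum alone, with 4.83 and 2.48 TPM there; without cerebellum both were called. Camk2g was 2.30-fold (2.06 to 2.57) higher, and the ranges of regions and MEFs overlapped for Camk2d and Camk1. The median was 4.59 over the 10 genes and 0.61 over all genes that could be called. The 10 include Camkv and Nrgn (6.82 and 7.33), which could not be called. Camkk2 was not called when the length trend was removed (2.20) or with factors that equalise the TPM (2.60).

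Of the 58 pathway genes, 51 of which could be called, 28 were higher in the brain regions and none lower. They included 3 of 3 IQ peptides, 6 of 13 related kinases, 3 of 4 inhibitors and phosphatases, 1 of 8 calcineurin genes (Ppp3ca, the brain-enriched catalytic subunit, 13.1-fold), 5 of 8 second messenger enzymes, 6 of 9 synaptic substrates and anchors, 2 of 8 nuclear targets and 1 of 2 AMPK subunits. The glutamate receptor gene Gria1 was 639-fold (275 to 1979) higher, Shank3 119.5-fold (71.8 to 213) and Adcy1 66.3-fold (51.0 to 88.4). Fibroblast markers summed to 51.9 to 100.1 TPM in the regions, against 6079 TPM in ICR MEF and 5546 TPM in OG2 MEF.

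Glia were low in the neuronal members against the brain regions, which also served in the preceding comparison. Here 4 of the 10 genes were called lower and none higher, with 8 that could be called, where 9.04% of 11347 genes were called lower and 6.91% higher. Camk2b was 27.4-fold (22.9 to 33.03), Camkk1 21.7-fold (14.4 to 34.3), Camk4 14.8-fold (11.8 to 18.7) and Camk2a 5.55-fold (4.60 to 6.73) lower. Camkk2 was 3.39-fold lower and Camk2g 1.59-fold lower, while Camk1 was 1.27-fold (1.10 to 1.46) higher in glia and Camk2d lay within the range of the regions. Camkv and Nrgn were called lower without cerebellum, Camkv also with a lower floor, and Camkk2 without hippocampus. Medians were -4.60 over the 10 genes and -0.02 over all genes that could be called. The 10 include Camkv and Nrgn (-6.64 and -6.61), which could not be called. Of the 58 pathway genes, 52 of which could be called, 17 were lower and none higher, among them 6 of the 9 synaptic substrates and anchors.

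Against the MEFs, glia differed in 1 of the 10 genes, with 6 that could be called. Contractile markers summed to 7055 TPM in glia, 6831 TPM in ICR MEF and 8228 TPM in OG2 MEF. Camk2b was called higher, at 16.15 TPM in glia against 0.11 and 0.18 TPM in ICR and OG2 MEF, where 10.3% of 10436 genes were called higher and 2.98% lower. The fold of 89.7 (24.96 to 769) rests on 2 counts in OG2 MEF. Camk2a was 2.87-fold (1.91 to 4.45), Camk4 1.95-fold, Camkk2 1.81-fold, Camk2d 1.71-fold, Camk2g 1.44-fold and Camk1 1.26-fold higher in glia, and Camkk1 was 2.26-fold (1.39 to 3.81) lower. Of these, Camk4 and Camk2g turned lower with the length trend removed (log2 differences of -0.01 and -0.08), and Camk1 with factors that equalise the TPM (-0.09). Camk4 and Camkk1 stood under 10 TPM in glia and both MEFs, so neither could be called. Of the 58 pathway genes, 39 of which could be called, 9 were higher and none lower, among them Camk1d (33.3 TPM in glia against 1.17 and 1.72 TPM in ICR and OG2 MEF) and the calcineurin regulator Rcan2 (202 TPM in glia against 19.3 and 14.9 TPM in ICR and OG2 MEF).

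In the library labelled R1 ESC, all 10 genes stood at 16.6 TPM or less. Against the MEFs, 3 were called lower and none higher, where 48.0% of 8461 genes were called lower and 4.83% higher. Only these 3 of the 10 genes had 10 TPM in both MEFs or in that library, so no other could be called. Camk2g was 30.8-fold (18.5 to 55.3), Camk2d 7.12-fold (5.60 to 9.15) and Camk1 5.03-fold (3.86 to 6.66) lower. The median log2 difference was -1.31 over the 10 genes and -2.01 over the 8461 genes that could be called. Camk2g, Camk2d and Camk1, the only members among these, stood at -4.31, -2.70 and -2.38, each below that median. Of the 58 pathway genes, 25 of which could be called, 19 were lower and none higher, among them the calcineurin subunit genes Ppp3cb (14.1-fold) and Ppp3r1 (11.2-fold). With the length trend removed no member was called, and only Camk2g was with factors that equalise the TPM or without length terms. Camk1 was also lost with factors from the counts (-1.70) and without ribosomal protein genes (-1.77).

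Between ICR MEF and OG2 MEF none of the 10 genes was called, with 4 that could be, where 0.437% of 8699 genes were called higher and 0.149% lower. Beyond counting error but under 4-fold, Camk4 was 2.51-fold (1.44 to 4.46), Camkk2 1.34-fold (1.06 to 1.70) and Camk1 1.18-fold (1.02 to 1.37) higher in ICR MEF. Camk4 could not be called, at 1.28 TPM in ICR MEF and 0.51 TPM in OG2 MEF. None of the 58 pathway genes was called, with 26 that could be, and medians were 0.04 over the 10 genes and 0.08 over all genes that could be called. Of the members that could be called, Camk2d stood at 0.04, and Camk2g, Camk1 and Camkk2 at 0.15, 0.24 and 0.38.

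**Figure D5:**
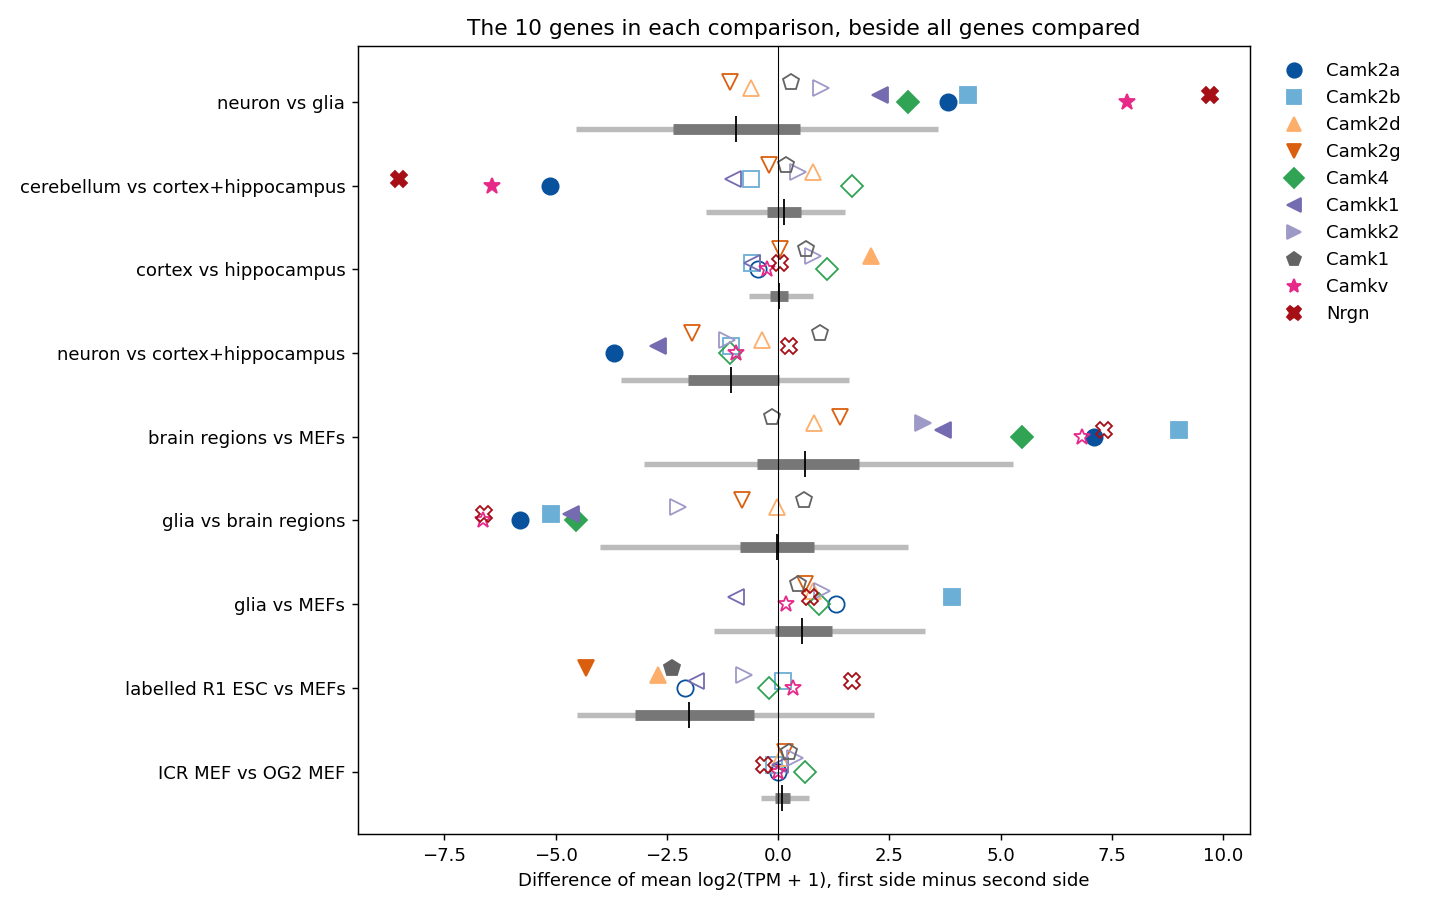
Difference of mean log2(TPM + 1), first-named side minus second, of the 10 genes in the 9 comparisons; filled symbols were called, open ones were not, and small vertical offsets separate symbols. Below each row, the thin grey bar spans the 5th to 95th percentile of all genes compared, the thick bar the 25th to 75th, and the tick their median; Nrgn lies farthest right for neuron and glia (9.70) and farthest left for cerebellum (-8.53).

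By the Pearson correlation of log2(TPM + 1) over the 8 libraries, Nrgn and Camkv were the most alike pair among the 10 genes (r = 0.986), followed by Camk4 and Camkk2 (0.977). These correlations describe 8 libraries of unequal kind and depth. Among 12237 genes, those most like Camk2a were Nexmif, Arc and Erc2 (r of 0.998, 0.991 and 0.991), and those most like Camk2b were Atp6v1g2, Syn2 and Lhfpl4 (0.998, 0.997 and 0.997). Arc, the immediate early gene of synapses, stood at 28.3 TPM in neuron, 14.15 in cerebellum, 236 in cortex and 225 in hippocampus.

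Most like Nrgn were Fam19a1, Sst and Lrfn2 (0.994, 0.994 and 0.993), and most like Camkv were Syt16, Tac2 and Fam19a2 (0.998, 0.996 and 0.996). Sst, the neuropeptide gene of a class of inhibitory neurons, stood at 1080.0 TPM in neuron, 816 in cortex and 738 in hippocampus, and 4.86 or less elsewhere. Most like Camk4 were Kcnt1, Rims3 and Slc39a2 (0.998, 0.996 and 0.995), all highest in cerebellum. Most like Camkk1 were Adcyap1r1, Ttc19 and Hsf4 (0.992, 0.991 and 0.987), and most like Camkk2 were Atg16l1, Arhgap26 and Taf1a (0.989, 0.989 and 0.988).

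The genes most like the more even members Camk2d, Camk2g and Camk1 share their profiles by the way they were picked. Most like Camk2d were Men1, Mief2 and Cutc (0.975, 0.973 and 0.970), most like Camk2g were Rmnd5b, Fam168b and Prkar1a (all 0.998), and most like Camk1 were Anapc4, Chic2 and Cyb5a (0.980, 0.980 and 0.979). Prkar1a, a regulatory subunit of protein kinase A, stood at 212 TPM in neuron, 390.3 in glia, 529.9 in cerebellum, 628 in cortex, 572 in hippocampus, 31.7 in the library labelled R1 ESC, 250.3 in ICR MEF and 251 in OG2 MEF.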

How the data were processed

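RNA of 8 mouse libraries was taken up in Trizol and 1 ug of total RNA went into an Illumina TruSeq RNA library, per the labels' protocols. Bowtie, RSEM and the build mm10 are named, per the submitters' processing notes, with no versions; annotation release and strandedness were not stated in the labels used here. Expected counts per gene, estimated by RSEM and not always whole, were deposited by the authors, per the file headers. The same tables hold TPM and FPKM as deposited by the authors, both scaled by effective length; FPKM was checked and not used. No reads were mapped again. Of TPM values, 99.9% were recomputed from counts and effective lengths to within 1%.

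The 10 genes, the 9 lists of 58 pathway genes, the 14 lists of 56 marker genes, the 9 comparisons and the calling rule (10 TPM and 4-fold on TPM + 1) were chosen with earlier results of these data known. All 10 genes are named; pathway genes are named where called, at most 4 a list by log2 ratio, and 3 genes a member by Pearson's r. Results of items withheld for evaluation are not reported here. Marker genes are named as checks of the labels. With 1 library a group no test was run; a side at 0 counts was set at 3 counts. Of 29713 identifiers 29202 had a symbol in GENCODE M21; start-site windows are RefSeq's (GRCm38.p6). The rule was tested on simulated data. Alternatives were other added TPM, floors, TMM factors of counts or TPM (edgeR 4.0.16 in R 4.3.3), no length term (CPM), 1 length per gene, no ribosomal protein genes and each library left out; removal of the length trend in 20 bins was added after seeing the data. Other tools were Python 3.11.15 with pandas 2.3.3, matplotlib 3.10.9, scipy 1.17.1 and numpy 2.4.6.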

Additional observations from a re-analysis of the deposited data

How the results depend on the processing

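No paired analysis was possible because each group holds 1 library. No member that was called changed direction under any alternative run. Members that were not called changed sign 50 times over all comparisons and alternatives, 20 of these with the length trend removed and 9 with TMM factors of the TPM. The widest was Camk4 in the library labelled R1 ESC against the MEFs, -0.20 as reported and 2.87 with the length trend removed. For cerebellum, the count of members called higher was 0 and ranged from 0 to 1 when cortex or hippocampus was left out. For cortex against hippocampus, the count higher was 1, and 0 with 5 TPM added, with no length term or with 1 length per gene. For neuron against cortex and hippocampus, the count lower was 2, 1 with TMM factors of the TPM or with no length term, and 0 with the length trend removed, which was added after seeing the data. For the library labelled R1 ESC against the MEFs, the count lower was 3, 1 with TMM factors of the TPM or with no length term, and 0 with the length trend removed. The cause was not tested. The summed share of Camk2a and Camk2b in cerebellum moved to 67.8% with 1 length per gene and 68.1% with counts, in cortex to 89.1% and 90%, and in OG2 MEF to 2.03% with 1 length per gene. In neuron, Camk2a moved to 32.4% and 35.3% and stayed under Camk2b, while in glia it passed Camk2b with counts. Of the counts of members called under alternatives, 202 stayed within 1.5 times and 10 moved further. Counts of 0 that stayed at 0 are among the 202.

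Across all genes, calls shifted more. For neuron and glia, 25.4% of calls were higher, against 48.4% with TMM factors of the TPM, 39.4% with no length term and 48.5% with the length trend removed. For neuron against cortex and hippocampus the shares were 9.09%, 49.4%, 31% and 31.9%, and for the library labelled R1 ESC 9.14%, 49.4%, 22.7% and 58.0%. For the brain regions against the MEFs 71.8% were higher, 57.2% after removal of the length trend and 53.2% under TMM factors of the TPM, and for glia against the MEFs 77.5%, 63.5% and 58.7%. TMM factors of the counts gave 19.8% for the library labelled R1 ESC. TMM factors of the TPM moved the median log2 difference over all genes to -0.16 for neuron and glia, where it was -0.95, and to -0.35 for the library labelled R1 ESC, where it was -2.01. Adding 5 TPM gave 183 genes higher and 1201 lower for neuron against cortex and hippocampus (243 and 2431 with 1 TPM), and 314 and 2485 for the library labelled R1 ESC (409 and 4064). With 5 TPM, genes lower in neuron than in glia numbered 2231 (3412 with 1 TPM), those higher and lower in cerebellum 152 and 214 (264 and 353), in cortex against hippocampus 38 and 21 (92 and 50), in glia against the MEFs 618 and 203 (1070 and 311), those higher in glia against the brain regions 518 (784), and between the MEFs 22 and 8 (38 and 13). A floor of 1 TPM gave 209 and 125 for cortex against hippocampus and 93 and 41 between the MEFs. TMM factors of the TPM gave 1920 and 2049 for neuron and glia (1163 and 3412), 800 and 821 for neuron against cortex and hippocampus, 1677 and 1721 for the library labelled R1 ESC, 61 and 32 for cortex against hippocampus, 1211 higher in the brain regions than in the MEFs (1824) and 651 higher in glia than in the MEFs. Without hippocampus, 564 genes were lower in cerebellum. With no length term, 591 and 1316 were called for neuron against cortex and hippocampus, 886 higher for the library labelled R1 ESC, 33 lower in cortex and 6 lower in ICR MEF. With the length trend removed, 1748 were lower in neuron than in glia, 650 lower in neuron than in cortex and hippocampus, and 1057 and 766 called for the library labelled R1 ESC, which had 764 higher with TMM factors of the counts and 751 without ribosomal protein genes. Of the 3 genes most like each member, the Spearman correlation kept none for 8 members and 1 each for Camk2d and Camkk2, and leaving out the library labelled R1 ESC kept all 3 for Camk4 and Nrgn alone. Levels under about 1 TPM rest on few counts.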
